A study of Homo sapiens with 3 samples.

Results

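A set of 8 genes of the actin, microtubule and intermediate filament systems and the nuclear lamina was examined for YBX1 peaks: the actins ACTB and ACTG1, the alpha-tubulin TUBA1B, and the intermediate filament genes VIM, KRT7, KRT8, KRT18 and LMNA. Every peak that shared at least 1 base with one of the 8 gene spans in build hg19 was taken, which gave 11 of the 17802 peaks in the list, or 0.0618%. The rule names genes and uses no value of a peak, but the genes were chosen with earlier results of these data known. The nearest peak outside any span lay 16.2 kb away, so no peak fell just short of the overlap rule.

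The peaks come from T24, an established human bladder carcinoma line, in which Flag-tagged YBX1 was overexpressed and captured with its RNA on anti-Flag beads, per the labels' protocols. The RNA on the beads was trimmed with micrococcal nuclease and depleted of ribosomal RNA before sequencing. There were 3 groups of 1 sample: input RNA taken before capture, RNA captured with YBX1, and captured RNA treated with bisulfite, which lets 5-methylcytosine be read. All of these cells overexpress the tagged protein, and a capture from untagged cells is not among the samples. The source label of the bisulfite sample names another line (T25) than its characteristics label, which gives T24. Each peak is given by its genome position alone, with no height, strand, read count or gene name, so depth is unknown, presence of a peak is not a level, and no test between groups could be made.

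YBX1 is a cold-shock-domain protein that coats mRNA in the cytoplasm and can bind RNA that carries 5-methylcytosine. The 2 actins polymerise into the microfilaments that shape the cell cortex and stress fibres, and alpha-tubulin pairs with beta-tubulin to build microtubules. Intermediate filament proteins form tissue-specific networks: keratins 7, 8 and 18 are typical of simple and urothelial epithelium, vimentin of mesenchymal cells and of carcinoma cells with mesenchymal features, and lamins A and C, both made from LMNA, line the inside of the nuclear envelope. All are abundant proteins in many cultured cells. RNA level was not analysed here, so a peak over one of these genes cannot be told apart from capture that follows RNA abundance.

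Peaks lay over 6 of the 8 genes. ACTG1 held 3 peaks, ACTB, KRT8 and LMNA 2 each, and VIM and KRT18 1 each. TUBA1B and KRT7 held none. As background, each chromosome was cut into consecutive tiles as long as the gene span in question, from its first to its last peak. The share of tiles with a peak was 1.65% for ACTB, 4.69% for ACTG1, 2.36% for TUBA1B, 2.57% for VIM, 5.56% for KRT7, 3.72% for KRT8, 2.44% for KRT18 and 12.8% for LMNA. These tiles contain untranscribed sequence, so they give the density of the list along a chromosome and not the share of expressed genes with a peak.

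**Figure D1:**
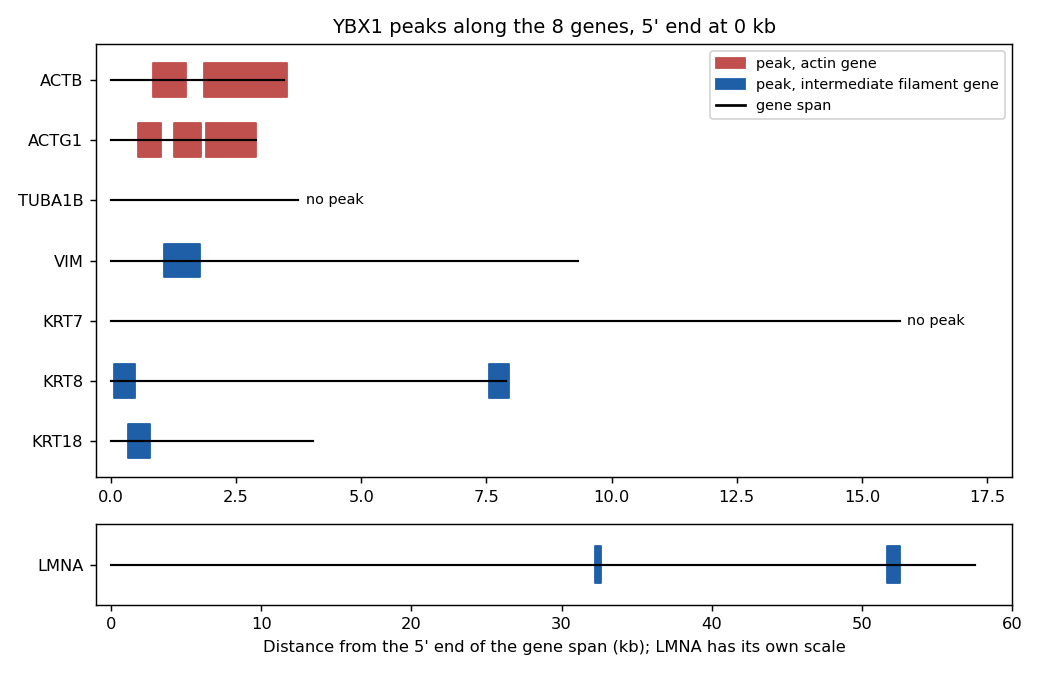
Each horizontal line is a gene span drawn from its 5′ end (0 kb) to its 3′ end, and each box is a YBX1 peak to scale; the x axis is distance in kb, with a separate scale for LMNA. Peaks fill most of ACTB and ACTG1 apart from their 5′ stretch, while those of VIM, KRT8, KRT18 and LMNA take up 2.15 to 10.7% of the span and TUBA1B and KRT7 have none. Spans include introns and differ in length, so these shares are not shares of the mRNA.

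The 2 cytoplasmic actin genes were covered over most of their length. ACTB, on the minus strand of chromosome 7 (chr7:5566779-5570232), had 65.8% of its 3454 bases under peaks. ACTG1, on the minus strand of chromosome 17 (chr17:79476997-79479892), had 69.1% of its 2896 bases under peaks. These 2 genes together held 57.4% of all bases under peaks in the 8 spans. Each share is of the whole span, introns included. For the same number of bases under peaks it is therefore lower in a longer span. LMNA had 1237 bases under peaks in 57.5 kb, against 2000 in the 2896 bases of ACTG1. Shares of exon sequence were not computed.

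The wider ACTB peak, chr7:5566716-5568383, measured 1667 bp. It was the 621st widest of the list, with 3.5% of all peaks as wide or wider. It and the widest ACTG1 peak were the 2 of the 11 peaks that reached 1000 bp, a width that 9.8% of all peaks reach. The ACTB peak began 1849 bp from the 5′ end of the gene and ran 63 bases past the 3′ end of the span. The second ACTB peak, chr7:5568725-5569392, measured 667 bp and began 840 bp from the 5′ end. A gap of 342 bp separated them.

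In ACTG1 the peak nearest the 3′ end was again the widest, at 1003 bp (chr17:79476986-79477989), and ran 11 bases past the span. The middle peak, chr17:79478091-79478641, measured 550 bp and lay 102 bp from it. The third, chr17:79478903-79479358, measured 455 bp and lay a further 262 bp upstream. Only 0.923% of neighbouring peaks in the list were closer together than 102 bp, and 5.69% were closer than 262 bp. The smallest gap in the list was 81 bp, so the gap of 102 bp is near its lower end.

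The actin genes shared one arrangement. No peak reached the first 840 bp of ACTB (24.3% of its span) or the first 534 bp of ACTG1 (18.4%). Beyond that stretch, peaks covered 87.0% of what remained of ACTB and 84.7% of what remained of ACTG1. Exon positions in hg19 were not used here, so the uncovered stretches were not assigned to an exon or intron.

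Against tiles of the same length on the same chromosome, few were as densely covered. Tiles were not aligned to gene ends, whereas the spans are. The tile shares therefore do not compare ACTB and ACTG1 with other genes of their length. On chromosome 7, 23 of 45859 tiles (0.0502%) had at least as many bases under peaks as ACTB, which is 3.04% of the 757 tiles with any peak. On chromosome 17, 49 of 27879 tiles (0.176%) reached the coverage of ACTG1, which is 3.75% of the 1308 tiles with a peak. At least 3 peaks, as in ACTG1, occurred in 64 tiles, or 4.89% of those with a peak.

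**Figure D2:**
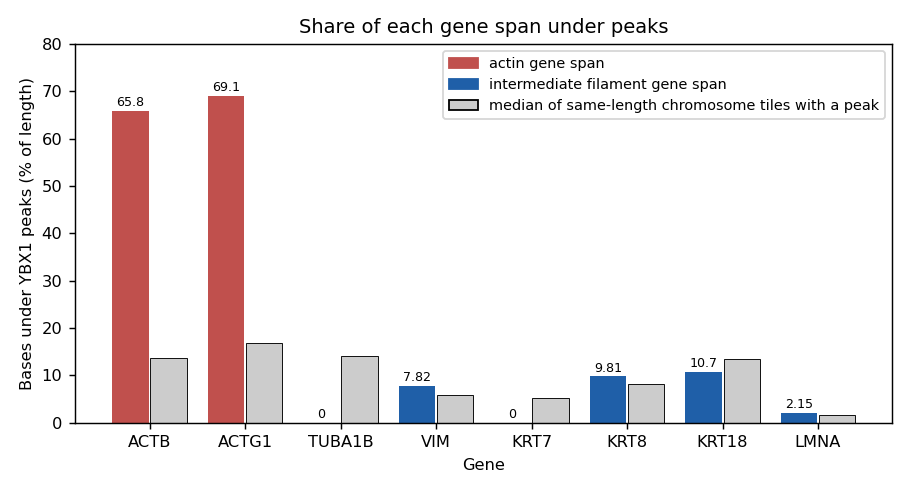
Coloured bars give the percent of each gene span that lies under YBX1 peaks, and grey bars the median percent over the tiles of the same length and chromosome that hold a peak. ACTB (65.8%) and ACTG1 (69.1%) stand far above their tile medians of 13.7% and 16.9%. VIM, KRT8, KRT18 and LMNA lie near theirs, and TUBA1B and KRT7 are at 0. Tiles were not aligned to gene ends.

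TUBA1B, which encodes a widely expressed alpha-tubulin, had no peak over its span of 3739 bases on the minus strand of chromosome 12 (chr12:49521566-49525304). The nearest peaks lay 67.0 kb to the lower-coordinate side and 236 kb to the higher side. In the RefSeq order of coding genes its next neighbours on the higher side are TUBA1A and TUBA1C, 2 other alpha-tubulin genes whose coding sequences closely resemble it. The sources used here do not say how the authors' alignment treated reads shared by such genes, so the lack of a peak over TUBA1B is not a measure of its binding.

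Of the 5 intermediate filament genes, 4 held peaks, 6 peaks in all. Their median width was 430.5 bp, against 667 bp for the 5 actin peaks and 470 bp for the whole list. The widths overlapped: the wider LMNA peak (835 bp) and the VIM peak (729 bp) exceeded the actin median. Of the 6 peaks 2 were at least 500 bp wide, and of the 5 actin peaks 4 were, where 40.8% of all peaks reach that width. With 11 peaks from 6 genes, neighbouring peaks sharing a gene, this difference in width was not tested.

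**Figure D3:**
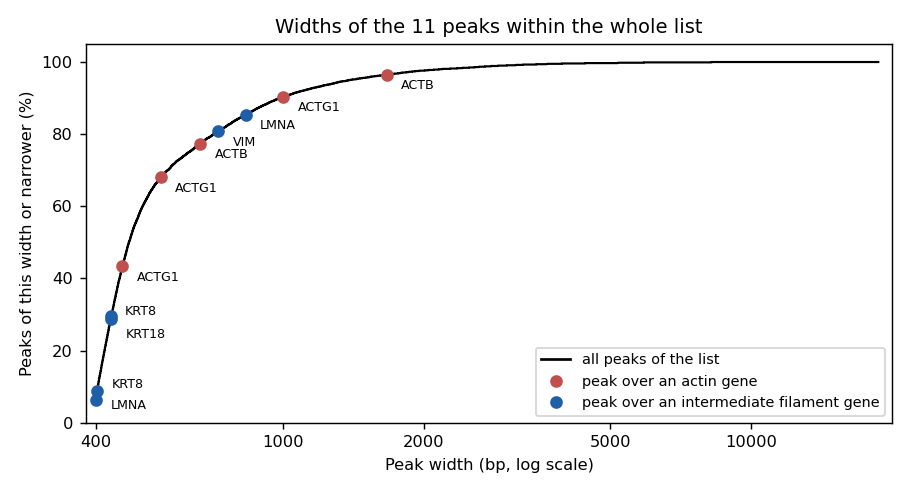
The black curve gives the percent of the 17802 peaks that are at most as wide as the value on the x axis (bp, log scale), and the points mark the 11 peaks by gene. The wider ACTB peak (1667 bp) and the 3′ ACTG1 peak (1003 bp) lie high on the curve, and peaks of KRT8 (402 bp) and LMNA (400 bp) lie at its foot.

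VIM, the mesenchymal intermediate filament gene on the plus strand of chromosome 10 (chr10:17270258-17279592), held a single peak of 729 bp at chr10:17271315-17272044. The peak began 1057 bp from the 5′ end and left the last 7.55 kb of the gene without one. It covered 7.82% of the span. In width it exceeded 80.7% of the list.

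The VIM peak stood far from any other. The next peaks were 3.53 Mb and 4.69 Mb away, so that 8.22 Mb of chromosome 10 held no other peak. The median of the 550 gaps between neighbouring peaks on chromosome 10 was 6.17 kb. Among these gaps, that of 3.53 Mb was the 10th largest and that of 4.69 Mb the 7th largest. Only 10 of the 17802 peaks were farther from their nearest neighbour than the VIM peak.

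KRT8 and KRT18, the type II and type I keratins that pair to form the filaments of simple epithelia, lie side by side on chromosome 12 and are read in opposite directions. KRT8 (chr12:53290971-53298868, minus strand) had 2 short peaks at its ends. The first, chr12:53298381-53298811, measured 430 bp and began 57 bp inside the 5′ end of the span. The second, chr12:53290912-53291314, measured 402 bp and ran 59 bases past the 3′ end. They were 7.07 kb apart, and together they covered 9.81% of the gene.

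KRT18 (chr12:53342655-53346685, plus strand) had 1 peak, chr12:53342993-53343424, of 431 bp. It began 338 bp from the 5′ end and covered 10.7% of the span, and the last 3261 bp held no peak. The KRT8 and KRT18 peaks nearest each other were 44.2 kb apart, with no peak between the 2 spans. The 5′ peaks of the 2 genes differed by 1 bp in width, and 71.7% and 71.1% of the list were as wide or wider. None of the 3 KRT8 and KRT18 peaks reached 500 bp, so both genes drop out when a width of 500 bp is required.

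KRT7, a type II keratin of simple and urothelial epithelium (chr12:52626954-52642709, plus strand), had no peak over its 15.8 kb. The nearest lay 41.2 kb to the lower and 29.2 kb to the higher side. From the start of KRT7 to the end of KRT18 is 720 kb, which held 9 peaks, 3 of them the KRT8 and KRT18 peaks. Tiles of that length on chromosome 12 held a median of 0 peaks, and as many peaks or more in 39 of 184 cases (21.2%).

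The 6 remaining peaks of this stretch lay between KRT7 and KRT8. They measured 405 to 1114 bp. Of these, 5 were grouped between chr12:52671913-52672742 and chr12:52685310-52686038, and the last stood at chr12:53241681-53242086, 48.9 kb before KRT8. In the RefSeq order, KRT86 and KRT81, keratins best known from hair, follow KRT7. These 6 peaks were not assigned to genes, because gene positions on hg19 were at hand for the 8 chosen genes alone.

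LMNA, on the plus strand of chromosome 1 (chr1:156052364-156109880), was the longest span at 57.5 kb and the least covered of those with a peak, at 2.15%. Its first peak, chr1:156084562-156084962, measured 400 bp, the smallest width in the list, which 6.39% of all peaks share. It began 32.2 kb from the 5′ end of the span. Transcripts that start inside the span were not considered, so the distance of this peak from a transcript start is unknown. The second, chr1:156104062-156104897, measured 835 bp, wider than 85.4% of the list, and began 51.7 kb from the 5′ end. It ended 4.98 kb before the 3′ end, and 19.1 kb separated the 2 peaks. Of the 4319 tiles of this length on chromosome 1, 299 (6.92%) held at least 2 peaks, which is 54.3% of those with a peak. The count in LMNA was thus ordinary among tiles with a peak only.

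Position within the gene differed among the 11 peaks. Measured from the 5′ end, the midpoints of 3 peaks lay in the first 25% of the span: those of VIM (15.2%), KRT18 (13.7%) and the 5′ peak of KRT8 (3.44%). The midpoints of 4 lay in the last 25%: the 3′ peaks of ACTB (77.7%), ACTG1 (83.1%), KRT8 (98.2%) and LMNA (90.6%). No peak crossed the 5′ end of a span. These positions hold for the hg19 spans used, and RefSeq's KRT8 model is 44.8 kb longer than its span. Transcripts that start inside a span, in LMNA or another of these genes, were not considered. In each of VIM and KRT18 the sole peak was on the 5′ side, whereas in each actin gene the widest peak was at the 3′ end.

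No peak outside a span lay within 10 kb of any of the 8. Among tiles with a peak, the share with no other peak within 10 kb of the tile was 36.1% at the length and on the chromosome of ACTB, 22.0% for ACTG1, 39.6% for VIM, 36.2% for KRT8, 29.0% for KRT18 and 59.7% for LMNA. For TUBA1B and KRT7, which hold no peak, the comparison is with tiles that hold none, and 95.1% and 96.1% of these had no peak within 10 kb, so the distance of these 2 spans from other peaks was ordinary. Within spans, the actin peaks were close together, and 5 of the 11 peaks, all of them actin peaks, had another within 5 kb, against 68.0% of all peaks.

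**Figure D4:**
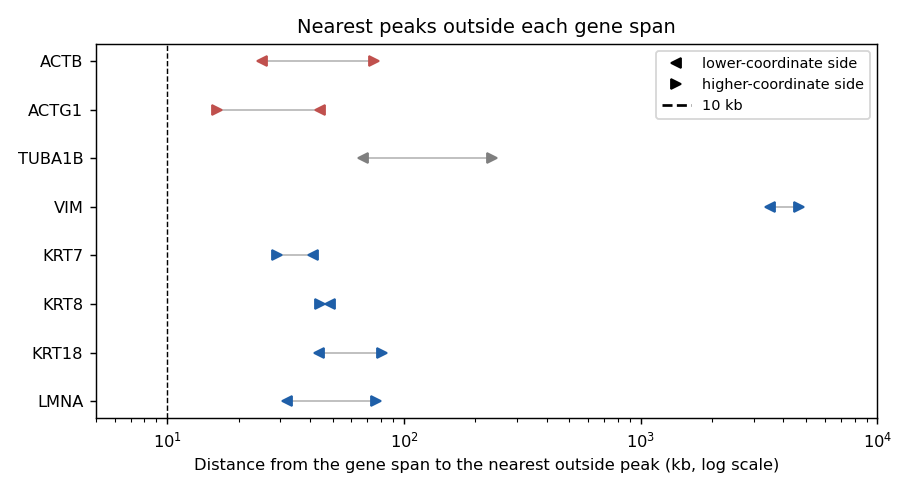
Triangles give the distance in kb (log scale) from each gene span to the nearest peak outside it, pointing left for the lower-coordinate side and right for the higher side; the dashed line marks 10 kb. All 8 genes lie to the right of the line, from 16.2 kb for ACTG1 to 3530 kb for VIM.

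Several of these genes have many retrotransposed copies elsewhere in the genome, from which reads cannot always be told apart. RefSeq lists 68 pseudogenes named after KRT18, 52 after KRT8, 21 after ACTG1 and 14 after ACTB, and none named after TUBA1B, VIM, KRT7 or LMNA. The coding sequences of ACTB and ACTG1 are also close to each other and to other actin genes. Peaks over ACTB, ACTG1, KRT8 and KRT18 are thus uncertain to the extent that shared reads were placed or dropped by the alignment, and the part of this in the peak counts was not tested.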

How the data were processed

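The data used are 1 peak list with 3 columns. Its deposited values are genome positions (chromosome, start, end) from the authors, per the file headers, and it holds no other measurement. Trimmomatic, MACS2 and build hg19 are named, without versions or settings, in the submitters' processing notes. Not given in the sources used here are the aligner, the peak-calling threshold, which libraries were used to call peaks, and any filtering afterwards. Whether starts count from 0 or 1 is not stated: positions are printed as deposited, a width is end minus start, and overlaps treat both ends as included.

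All 8 genes are named and described. They, their hg19 spans and the fixed list of related genes were chosen with earlier results of these data known. The 25 related genes were given no values, since their hg19 positions were not at hand. Strands of 5 genes came from the RefSeq promoter table (GRCh38.p14), those of ACTB, KRT7 and KRT18 from general knowledge. No coordinate was converted between builds, and no sequence was read. With 1 sample per group, nothing was tested. Overlaps counted from 1 base; the overlap function gave the base-by-base answer in 200 of 200 simulated lists. Alternatives changed the overlap rule, span, peak set, first base and tile start. Python 3.11.15, numpy 2.4.6, pandas 2.3.3, scipy 1.17.1 and matplotlib 3.10.9 were used.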

Additional observations from a re-analysis of the deposited data

How the results depend on the processing

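Of 141 recomputed values, 119 stayed within a wide tolerance of the reported one: 1.5 times for a count, and for a share its 95% Wilson interval, which treats bases or tiles as independent. The count of genes with a peak was 6 in all but 2 settings: 4 with peaks of at least 500 bp and 5 with narrowed spans. Keeping peaks of at least 500 bp left 6 of 11 peaks and 5.14% of the 8 spans under peaks, against 7.12% with all peaks; KRT8 and KRT18 then held no peak and LMNA 1. The share was 6.28% with spans widened by 1000 bp and 5.7% with spans narrowed by 500 bp on each side, which removed both KRT8 peaks. Coverage of ACTB moved between 42.8% and 72.2% and that of ACTG1 between 41.1% and 79.1%. TUBA1B and KRT7 held no peak under any of the 7 settings. None could have given them one, since spans were widened by 1000 bp at most and the nearest peaks lay 67.0 and 29.2 kb away. Merging peaks closer than 100 bp could not change a value either, as the smallest gap within a span was 102 bp. These values count among the 119, which therefore overstates the stability. Shifting tiles by 0.5 of their length moved no tile share by more than 0.2 percentage points. No paired analysis was possible because no group has a second sample. Read depth is not in the list, so binding too weak to give a peak cannot be judged.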

Other observations

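Peaks that ran past the 3′ end of a span occurred in each of the 3 minus-strand genes with a peak (ACTB by 63, ACTG1 by 11 and KRT8 by 59 bases) and in none of the 3 plus-strand genes with a peak (VIM, KRT18 and LMNA). In VIM, KRT18 and LMNA the peak nearest the 3′ end stopped 7.55 kb, 3261 bp and 4.98 kb before it. With 3 genes on each side a link to strand was not tested. The list gives no strand, so the strand of the RNA under these peaks is unknown.

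RefSeq's gene model on GRCh38.p14 is longer than the hg19 span used here for KRT8 (52.7 kb against 7.9 kb) and for KRT7 (22.6 kb against 15.8 kb). The KRT8 model is longer by 44.8 kb. The 43.8 kb between the KRT8 and KRT18 spans held no peak, but the KRT18 peak begins 44.1 kb from the KRT8 span, so a span extended by the whole length on that side would also take in that peak. The KRT7 model is longer by 6.86 kb, while the nearest peak lay 29.2 kb from the span.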
